A study of Mus musculus with 24 samples.

Results

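Socs2, Cyp2b9, Slco1a1, Cyp3a41a, Cyp3a41b and Cyp3a44 are 6 liver genes known to respond to growth hormone. They were taken by symbol from the tables of transcripts that differed between diets in the liver of 2 inbred mouse strains, C57BL/6J and A/J, and all transcripts of each gene were kept. All 6 had a row in 1 of the 2 tables, with 9 transcripts in all, among 862 named genes in either table. C57BL/6J held Socs2 (4 transcripts), Cyp2b9 and Slco1a1 among 681 transcripts, and A/J held Cyp3a44, Cyp3a41b and Cyp3a41a among 699. No gene of the 6 had a row in both tables, and 75 other named genes did. The 6 were chosen by their adjusted p-value over 3 diets, which put them in a table, and with their fold changes known, so the levels and differences below are descriptions.

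RNA-seq was run on 12 liver libraries, 2 for each strain and diet. Control mice ate control diet for 16 weeks, HF mice ate high fat diet for 16 weeks, and Reversal mice spent 8 weeks on high fat diet before 8 weeks on control diet, per the treatment protocol in the labels, although the diet tag of Reversal gives 16 weeks of control diet. The labels used here give neither age nor sex, name no allele beyond the strain, and do not say whether the 2 libraries of a diet are from different animals. All p-values below rest on the spread between such libraries, which may be only technical. Open chromatin was profiled in the same series and was not used here, because gene positions in the assembly of the peak lists were not at hand.

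Growth hormone binds its receptor on hepatocytes, the kinase JAK2 phosphorylates the transcription factors STAT5A and STAT5B, and these enter the nucleus and act on target genes. SOCS2 and CISH are induced by this signal and act back on it as inhibitors. The pituitary releases the hormone in pulses in male mice and more evenly in female mice, and this difference sets much of the sex bias of liver genes. Cyp2b9, Cyp3a41a, Cyp3a41b and Cyp3a44, which encode cytochrome P450 enzymes, are known for higher expression in female liver, and Slco1a1, which encodes an uptake transporter for organic anions, for higher expression in male liver.

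Each table gives, per transcript, a mean normalized count over the libraries of the strain, a log2 fold change with its standard error (SE), a likelihood ratio statistic over all 3 diets, and a p-value. The fold change compares 2 of the 3 diets, and the tables do not name which. A positive or negative sign is therefore read neither as higher nor as lower on high fat diet. Values per library are not in the tables, so that no level can be given for a single sample or a single diet. At an adjusted p under 0.05 from DESeq2, 3.46% of the 19658 transcripts tested differed between diets in C57BL/6J and 3.39% of the 20591 tested in A/J. At an adjusted p under 0.01 these shares were 1.89% and 2.17%, and with Bonferroni adjustment 0.941% and 1.08%. All 9 transcripts passed an adjusted p of 0.01, and 8 of the 9 passed Bonferroni adjustment, with Cyp3a41a at p 0.0717 as the exception. A 95% interval around each of the 9 fold changes did not reach 0, against the same for 60.6% of the C57BL/6J transcripts and 51.5% of the A/J transcripts in the tables. Since a row in a table is what chose the 6 genes, these shares are background and nothing is read from the count of members. The tables hold only transcripts under that threshold, so a gene without a row may have been above it or may not have been tested.

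Socs2, the feedback inhibitor, stood near the top of the C57BL/6J table. Its 4 transcripts had mean normalized counts between 266 and 278 and log2 fold changes between 2.39 and 2.41 in the authors' deposited table. The transcripts of 1 gene share most of their reads and are not separate measurements. The transcript with the smallest p, NM_001168656, had a log2 fold change of 2.41 ± 0.26 (SE), a 5.33-fold difference between the 2 diets of the contrast (95% interval 3.75 to 7.57), in the authors' deposited table. Its likelihood ratio statistic was 118 (DESeq2 adjusted p 7.91e-23), the seventh smallest p among the 681 transcripts of the authors' deposited table, and its fold change ranked 13 by size. Socs2 was nonetheless a gene of low level for this table, as only 13.2% of the transcripts had a lower mean normalized count.

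The statistic covers 3 diets and the fold change only 2 of them, and what is left of the statistic belongs to the diet outside the contrast. The contrast itself accounts for the square of the fold change divided by its SE, and with this subtracted 30.7 of the 118 was left for Socs2, a share of 26.1%. The median share left over all C57BL/6J transcripts was 66.3%. If the 3 diets are measured equally well, this puts the diet outside the contrast at about 1.24 ± 0.22 log2 units from the middle of the other 2, which themselves lie 1.21 units to either side of that middle. The diet outside the contrast was thus near the level of 1 of the other 2 diets, within the error of the estimate, and 1 diet stood apart from a pair. Which diet stood apart cannot be read from the table.

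**Figure D1:**
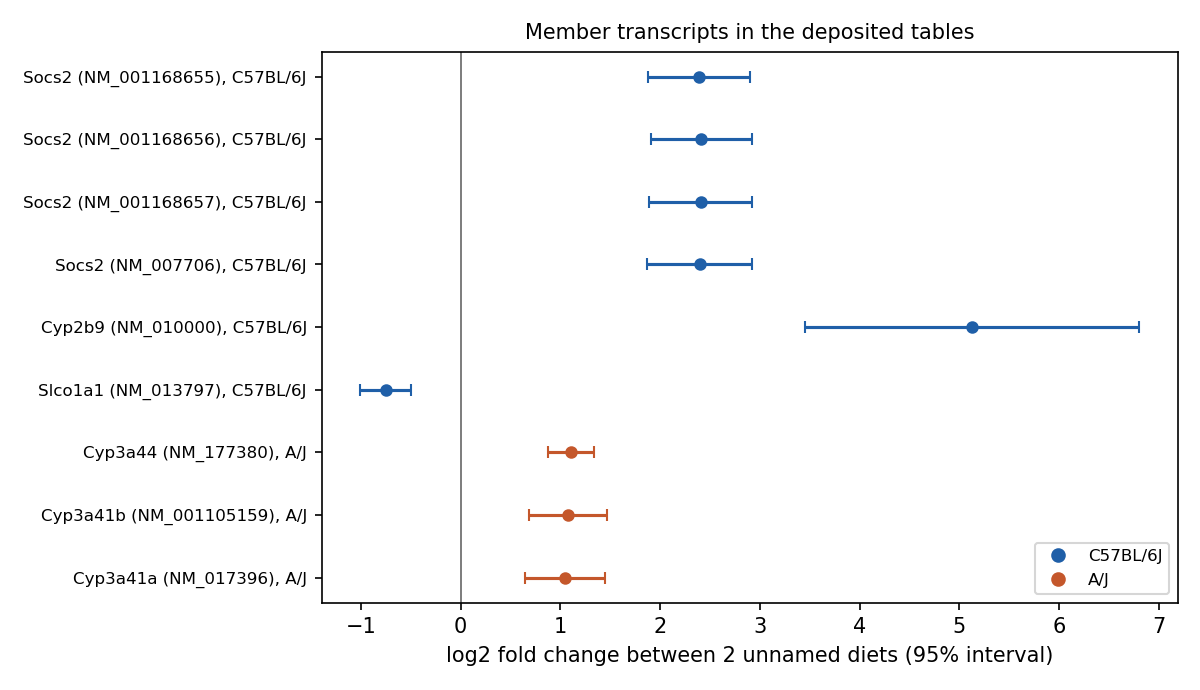
Log2 fold change between 2 diets that the tables do not name (horizontal axis) for each of the 9 transcripts, as points with 95% intervals, in blue for C57BL/6J and orange for A/J. The 4 Socs2 transcripts lie between 2.39 and 2.41, Cyp2b9 has the widest interval, and Slco1a1 alone among the 9 is negative.

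Cyp2b9, a steroid and drug hydroxylase, had the second largest fold change by size in the C57BL/6J table. The log2 fold change was 5.12 ± 0.85 (SE) at a mean normalized count of 229 in the authors' deposited table. This is a 34.9-fold difference with an interval from 11.0 to 111, so that its size is poorly known, and a fold of this size at this mean implies few reads in 1 of the diets. The likelihood ratio statistic was 35.6 (DESeq2 adjusted p 4.00e-06) in the authors' deposited table. The part of the contrast, 36.1, already exceeded it, and nothing was left for the diet outside the contrast. That diet therefore lay between the other 2 by this estimate, whose SE of 0.74 log2 units is wide and whose assumption of equal precision is least safe where a diet has few reads.

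Slco1a1 (OATP1A1) was the only gene of the 6 with a negative fold change. The log2 fold change was -0.75 ± 0.13 (SE), a 1.68-fold difference (95% interval 1.41 to 2.01), in the authors' deposited table. The likelihood ratio statistic was 35.8 (DESeq2 adjusted p 3.67e-06), close to that of Cyp2b9, in the authors' deposited table. Its mean normalized count of 13928 exceeded that of 91.9% of the C57BL/6J transcripts. Of the statistic 2.12 was left for the diet outside the contrast, an estimated distance of 0.16 ± 0.11 log2 units from the middle, against 0.38 from the middle to each of the other 2. In the C57BL/6J contrast the female-biased Cyp2b9 and the male-biased Slco1a1 thus had opposite signs, with Socs2 on the side of Cyp2b9. Of all C57BL/6J transcripts 60.6% had a positive fold change and 39.4% a negative one.

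The 3 Cyp3a genes lie in 1 cluster on chromosome 5 of the reference assembly, and their fold changes in A/J were alike. Cyp3a44 had a log2 fold change of 1.11 ± 0.12 (SE), a 2.15-fold difference (95% interval 1.84 to 2.52), in the authors' deposited table. Cyp3a41b had 1.07 ± 0.20, or 2.10-fold (1.60 to 2.75), and Cyp3a41a had 1.05 ± 0.21, or 2.06-fold (1.56 to 2.73), in the authors' deposited table. These 3 values lie within 1 SE of each other. The mean normalized counts were 3086 for Cyp3a44, 2217 for Cyp3a41b and 4825 for Cyp3a41a, and they are not corrected for transcript length. Cyp3a41a and Cyp3a41b are near copies that share reads, so the split of counts between them is uncertain and their 2 rows are not independent.

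The statistics of the 3 genes were less alike than their fold changes. Cyp3a44 had 106 (DESeq2 adjusted p 1.25e-20), rank 20 of 699 by p, while Cyp3a41b had 28.3 (adjusted p 7.76e-05) and Cyp3a41a 25.1 (adjusted p 0.000314), in the authors' deposited table. The SE of Cyp3a44 was smaller, and 15.4 of its statistic was left for the diet outside the contrast. By the estimate above that diet lay 0.40 ± 0.10 log2 units from the middle, inside the 0.55 units that separate the middle from each of the other 2 and nearer to 1 of them. The 95% interval of that distance includes 0.55, so that it could also lie level with that diet. For Cyp3a41a and Cyp3a41b nothing was left, which places that diet near the middle, with SE of 0.18 and 0.17. Among all transcripts of the tables the diet outside the contrast lay beyond the other 2 in 86.3% in A/J and 72.4% in C57BL/6J, and of the 6 genes Socs2 alone was on that side, by a margin of 0.03 log2 units that is smaller than its SE. By this measure a large fold change favours a place between the other 2. The 6 were chosen with their fold changes known, so nothing is read from this count.

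**Figure D2:**
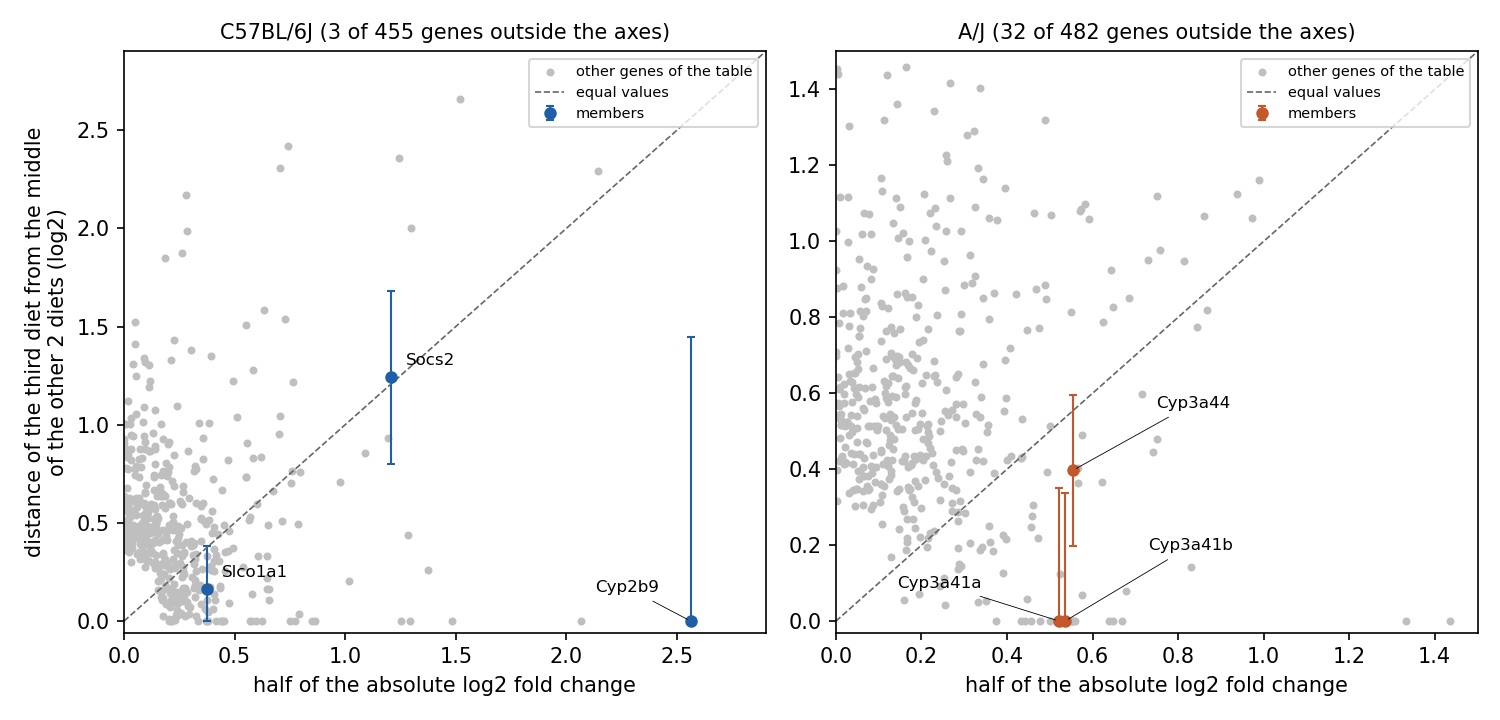
For each named gene, 50% of the absolute log2 fold change (horizontal axis, log2 units) against the estimated distance of the diet outside the contrast from the middle of the other 2 (vertical axis, log2 units), with 1 panel per strain, grey points for other genes and coloured points for the 6, whose bars are 95% intervals cut at 0. Points under the dashed line have that diet between the other 2. Socs2 lies on the line at 1.21 and 1.24, and Cyp2b9, Slco1a1 and the 3 Cyp3a genes lie under it, where the intervals of Slco1a1 and Cyp3a44 reach the line.

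The promoters of the 3 Cyp3a genes are shown because these genes had like fold changes and their sequences show how close the copies are. The sequences are those of the reference assembly, and the sequence of A/J was not read. Each run holds 300 bases, 250 before and 50 from the transcript start, 5′ to 3′ on the minus strand, from RefSeq on GRCm38.p6. The window is chr5:145720087-145720386 for Cyp3a41a, chr5:145584681-145584980 for Cyp3a41b and chr5:145805825-145806124 for Cyp3a44. Capitals in Cyp3a41a mark bases that differ in either relative, and capitals in the relatives mark bases that differ from Cyp3a41a.
Cyp3a41a: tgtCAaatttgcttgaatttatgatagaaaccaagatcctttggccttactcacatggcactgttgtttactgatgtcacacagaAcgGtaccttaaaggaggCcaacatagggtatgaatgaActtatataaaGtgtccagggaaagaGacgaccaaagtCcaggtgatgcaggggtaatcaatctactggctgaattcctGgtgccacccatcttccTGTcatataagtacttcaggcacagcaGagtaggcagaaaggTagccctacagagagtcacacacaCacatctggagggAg
Cyp3a41b: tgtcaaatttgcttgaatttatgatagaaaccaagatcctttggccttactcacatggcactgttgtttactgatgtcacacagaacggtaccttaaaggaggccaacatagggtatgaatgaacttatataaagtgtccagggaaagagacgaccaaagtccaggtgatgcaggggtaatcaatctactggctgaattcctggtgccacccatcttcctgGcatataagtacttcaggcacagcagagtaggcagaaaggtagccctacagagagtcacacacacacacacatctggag
Cyp3a44: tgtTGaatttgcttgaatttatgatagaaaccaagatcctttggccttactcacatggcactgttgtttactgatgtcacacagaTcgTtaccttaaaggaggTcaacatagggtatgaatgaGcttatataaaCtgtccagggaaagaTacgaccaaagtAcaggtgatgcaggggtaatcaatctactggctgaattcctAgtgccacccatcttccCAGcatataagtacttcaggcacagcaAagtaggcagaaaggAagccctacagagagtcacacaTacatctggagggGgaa
Cyp3a41a and Cyp3a41b had the same base at 295 of 296 aligned positions (99.7%), and the 1 substitution, T222G, counted from 1 at the 5′ end of the Cyp3a41a window, lies 29 bases before the transcript start. Apart from it the windows differ in the length of a ca repeat downstream of the start. Cyp3a44 matched Cyp3a41a at 281 of 298 aligned positions (94.3%), and its 17 substitutions include C162A and the neighbouring T220C, G221A and T222G.

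STAT5 dimers bind the palindrome TTCNNNGAA. None of the 5 promoter windows at hand, those of the 3 Cyp3a genes, Cyp2b9 and Slco1a1, held it on either strand, and 8.30% of 32851 RefSeq promoter windows of this length did. With 1 more base in the spacer the count was also 0 of 5, against 6.95% of all windows. These counts say only that the letters are not in these windows of the reference assembly.

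Relatives of the 6 genes were read from lists of their families. Of 14 listed Cyp3a and Cyp2b genes 6 had a row in A/J, all with a positive fold change. Among all 482 named A/J genes 248 were positive and 234 negative, or 49.6% positive and 50.4% negative over its transcripts. Of all transcripts tested in A/J, 3.39% had a row, which is a share of transcripts and not of genes. Beside the 3 members these were Cyp3a16 at 0.91 ± 0.24, Cyp2b13 at 1.37 ± 0.46 and Cyp3a13 at 0.17 ± 0.13 (SE) on the log2 scale in the authors' deposited table. Cyp3a16 and Cyp2b13, both known for female-biased expression, were nearer to the threshold than any of the 6, with DESeq2 adjusted p of 0.0248 and 0.0360 in the authors' deposited table. For Cyp3a13 30.1 of a statistic of 31.8 was left for the diet outside the contrast, unlike its female-biased relatives. In the order of genes along the chromosome Cyp3a16, Cyp3a41b, Cyp3a41a and Cyp3a44 follow each other with only pseudogenes between them, and Cyp3a11, a major drug-metabolizing enzyme of mouse liver that is the next cytochrome gene after Cyp3a44, had no row in either table. In C57BL/6J Cyp2b9 was the only gene of the 14 with a row.

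Of 17 listed organic anion transporters 4 had a row in C57BL/6J, where 3.46% of all transcripts tested had one. That share is of transcripts and the count is of genes, so they are not on the same scale. Of the 4, 3 were negative and 1 positive, against 190 negative and 265 positive among all 455 named genes. Slco1a5 and Slco1a6, close relatives of Slco1a1, had -0.80 ± 0.20 and -0.87 ± 0.21 (SE), and Slco2b1, from another branch of the family, had 0.42 ± 0.11 on the log2 scale in the authors' deposited table. Their DESeq2 adjusted p were 0.0168, 0.0118 and 0.0215 in the authors' deposited table. The mean normalized counts of Slco1a5 and Slco1a6 were 378 and 281, against 13928 for Slco1a1. Whether the 3 Slco1a genes share reads was not tested. All 3 Slco1a genes had fold changes between -0.87 and -0.75, and in none of them was more than 2.12 of the statistic left for the diet outside the contrast. On chromosome 6 Slco1a1 is followed by Gm6614 and then Slco1a6, and Gm6614, a protein-coding gene outside the list, had -0.83 ± 0.21 (DESeq2 adjusted p 0.0168) in C57BL/6J in the authors' deposited table. The other 4 of the 6 nearest neighbours of Slco1a1 had no row in either table. The A/J table had no row for any listed Slco gene, and Slc22a7, another anion carrier, had -0.63 ± 0.13 in the authors' deposited table.

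On a list of 42 genes of growth hormone signalling and its liver transcription factors, 11 had a row in C57BL/6J (8 positive, 3 negative) and 6 in A/J (4 positive, 2 negative). Over all named genes with a row, 265 of 455 were positive in C57BL/6J and 248 of 482 in A/J. Of all transcripts tested, 3.46% and 3.39% had a row, which are shares of transcripts and not of genes. Cish, the other STAT5-induced inhibitor, had a log2 fold change of 4.13 ± 0.97 (SE) in C57BL/6J, on the same side as Socs2 (DESeq2 adjusted p 0.0210), in the authors' deposited table. The part of the contrast, 18.0, exceeded its statistic of 15.2, so the split of the statistic is unsafe for Cish. Nothing was left for the diet outside the contrast, with an SE of 0.84 log2 units for its distance. A difference from Socs2 in the place of that diet cannot be read from these values. The other SOCS genes on the list, Ghr, Jak2 and Igf1 had no row in either table. Igfals, which encodes the partner of IGF1 in the circulation, had 0.48 ± 0.16, and Igfbp1, an insulin-repressed binding protein of IGF1, had 0.37 ± 0.26 with 69.8 of a statistic of 71.9 left for the diet outside the contrast, in C57BL/6J in the authors' deposited table. The transcription factor genes Cebpb and Foxa2 had 0.90 ± 0.18 and 0.83 ± 0.18 in C57BL/6J, with Hnf4a at -0.35 ± 0.10, in the authors' deposited table.

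The A/J table held the STAT5 genes themselves. The log2 fold changes of Stat5a and Stat5b were 0.00 ± 0.13 (SE) and -0.11 ± 0.11, with statistics of 38.6 (DESeq2 adjusted p 8.41e-07) and 21.8 (adjusted p 0.00130), in the authors' deposited table. For both genes nearly the whole statistic was left for the diet outside the contrast, 38.6 and 20.8, at estimated distances of 0.70 and 0.44 log2 units. For the 3 Cyp3a genes of the same table most or all of the statistic was in the contrast. These 3 were chosen with their fold changes known, which favours that outcome, so nothing is read from the difference. Cux2, a repressor that is higher in female liver, had 1.18 ± 0.45 at a mean normalized count of 45.9 in the authors' deposited table. The leptin receptor gene Lepr had 1.17 ± 0.33, and Por, the electron donor of microsomal cytochromes P450, had 0.30 ± 0.16 with 62.6 of a statistic of 66.1 left for the diet outside the contrast, in the authors' deposited table.

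Among 45 listed genes with higher expression in female liver, 16 had a row in A/J, 13 positive and 3 negative, with a median log2 fold change of 0.81 against 0.01 over all named A/J genes. Cyp3a44 had the smallest adjusted p of this list, which also held Cyp26a1, a retinoic acid hydroxylase gene with -0.40 ± 0.29 (SE), and Cyp2c39 with 0.71 ± 0.16, in the authors' deposited table. Of the 45, 5 had a row in C57BL/6J, 4 positive and 1 negative, against 265 positive and 190 negative among all 455 named genes. Beside Cyp2b9 these included Cyp2a4 and Cyp2a5, steroid and coumarin hydroxylase genes that share reads, at 0.39 ± 0.19 and 0.39 ± 0.18, and Cyp39a1, an oxysterol hydroxylase gene, at -0.53 ± 0.16, in the authors' deposited table. Cyp2b9 was thus the only one of these C57BL/6J genes whose difference lay mainly in the contrast, while in the other 4 most of the statistic was left for the diet outside it. Cyp2b9 was chosen with its fold change known, so nothing is read from this.

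Among 47 listed genes with higher expression in male liver, 13 had a row in C57BL/6J, 2 positive and 11 negative, with a median of -0.47 against 0.12 over all named genes of that table. Slco1a1 followed by adjusted p on C8a and C6, genes of the terminal complement pathway at -0.74 ± 0.10 and -0.92 ± 0.15 (SE), and stood before Gstp2, a glutathione transferase gene at -0.69 ± 0.17, in the authors' deposited table. Of the 47, 24 had a row in A/J and all 24 were negative. Their median was -0.83, against 0.01 over all 482 named genes of that table, of which 234 were negative. Of all transcripts tested in A/J, 3.39% had a row. Among the 24 were Mup17 at -1.43 ± 0.13, Mup1 at -1.36 ± 0.18, Mup12 at -1.28 ± 0.17 and Cyp1a2 at -0.47 ± 0.11 in the authors' deposited table. Mup genes encode major urinary proteins, are near copies of each other and share reads. Many of the 24 are Mup genes, and Gstp1 and Gstp2 also share reads, so the 24 are not separate measurements. The 3 Cyp3a genes therefore had the sign opposite to that of all listed male-biased genes with an A/J row. These lists were drawn up with earlier results of these data known, and their direction is not independent evidence.

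**Figure D3:**
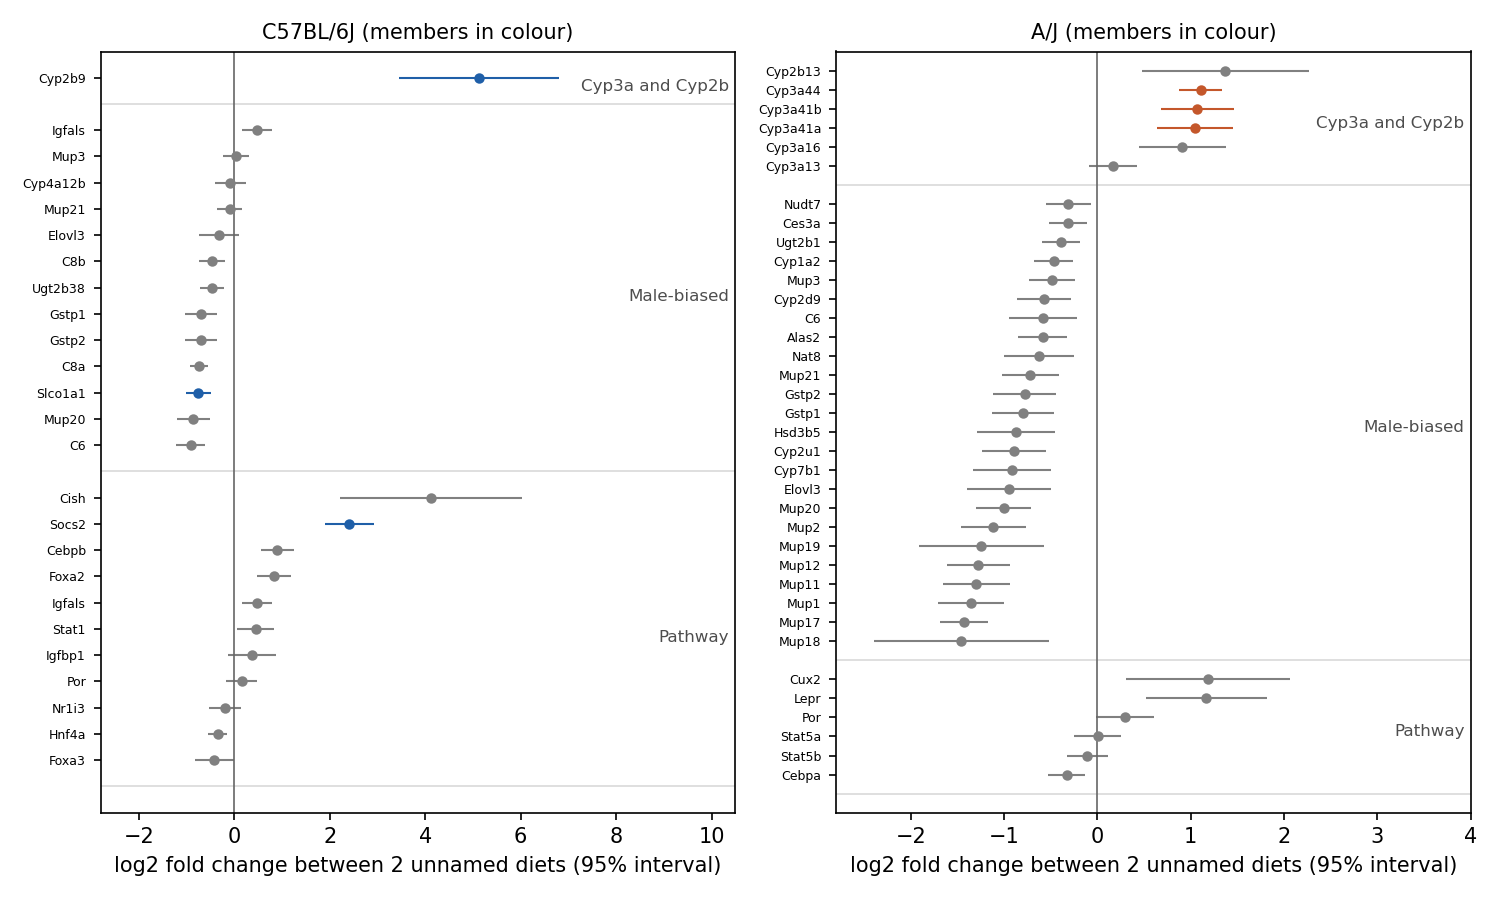
Log2 fold change between 2 unnamed diets (horizontal axis) with 95% intervals for every gene with a row on the lists of Cyp3a and Cyp2b genes, of male-biased genes and of signalling genes, C57BL/6J left and A/J right, with the 6 genes in colour. Cyp2b9 and the 3 Cyp3a genes lie right of 0, as do the other listed genes of their families, and Slco1a1 lies left of 0 with 10 other male-biased genes of its table. Of these 11 male-biased genes, 8 have intervals that leave out 0.

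The genes most like each of the 6 were found by distance in the plane of log2 fold change and estimated distance of the diet outside the contrast, over 454 other genes in C57BL/6J and 481 in A/J. For Socs2 the nearest were Rgs3, Nr4a1 and Il1b, at 0.70, 0.78 and 0.89 log2 units. Their fold changes had SE of 0.58, 0.92 and 0.41, so how near they lie is poorly known. Cish was nearest to Cyp2b9 at 1.00, followed by 1810046K07Rik at 2.39 and Gadd45g at 2.44. Slco1a1 had close company in Shld2, Tmem199 and Ahr, at 0.07, 0.11 and 0.11. In A/J Cyp3a41a and Cyp3a41b were nearest to each other at 0.03, followed for both by Pck1, the gene of a glucose-producing enzyme, and Usp18. Cyp3a44 was nearest to Angptl4 at 0.02, Gbp3 at 0.04 and Pim3 at 0.20. Each gene's pattern here is only 2 numbers from 1 strain. For Cyp2b9, Cish, Cyp3a41a, Cyp3a41b and Pck1 the estimated distance is 0 because a part below 0 was read as 0. Their likeness on that axis comes partly from this rule. The estimated distance has no sign. Genes that are near by this measure can therefore have the diet outside the contrast on opposite sides of the middle.

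Markers of other cells were read from the same tables. Hepatocyte markers with a row were Cps1 and Apoa1 in C57BL/6J and Cps1 in A/J, of 8 listed. Of 7 macrophage markers Marco and Cd5l had a row in A/J. Marco had 1.09 ± 0.41 (SE) and Cd5l had 0.40 ± 0.22 in the authors' deposited table. Both were positive, as were the 3 Cyp3a genes, but the interval of Cd5l, from -0.04 to 0.84, included 0. For Marco 18.5 of a statistic of 25.7 was left for the diet outside the contrast, and for Cd5l 10.4 of 13.6. In the 3 Cyp3a genes most or all of the statistic lay in the contrast, but they were chosen with their fold changes known. Nothing is read from this difference. No macrophage marker had a row in C57BL/6J, and none of the listed markers of endothelium, stellate cells, cholangiocytes and lymphocytes had a row in either table. Alas2, counted as an erythroid marker and among the male-biased genes, had -0.59 ± 0.13 in A/J, and the adipocyte marker Cfd had 0.56 ± 0.41 in C57BL/6J, in the authors' deposited table. The part of these markers in the results was not tested. In whole liver, fewer cells of a type and less RNA per cell cannot be told apart.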

How the data were processed

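Liver RNA of 12 libraries is given as 1 result table per strain. The submitters' processing notes name Bowtie2, TopHat, DESeq2 and mm9, with no role or version. Per the file headers, the authors deposited DESeq2 results: a mean normalized count (a signal over the libraries of a strain), a log2 fold change with its standard error on the log2 scale, a score that is the likelihood ratio statistic, a p-value and an adjusted p-value. Each deposited p-value equals the chi-square tail at that score with 2 degrees of freedom, so the test covers 3 diets. Library depth is not known here. Counts or values per library were not used here, and no test was refitted. The largest deposited adjusted p-value was 0.0496 for C57BL/6J and 0.0498 for A/J. How many transcripts were tested follows from the deposited p-values, their ranks and the adjusted p-values.

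Symbols came from a RefSeq table of GRCm38.p6, used for names and gene order, and matched 675 of 681 and 690 of 699 transcripts. Of 6 genes, 5 had a RefSeq promoter window. In the lists, a gene was represented by its transcript with the smallest p. Intervals are 95% intervals from the deposited standard errors. The part of the score outside the contrast is the score less the square of the fold change over its standard error. It fell below 0 in 36 and 28 transcripts, since the 2 kinds of statistic differ, and was then read as 0 for distances. The distance of the diet outside the contrast is the standard error times the square root of 0.75 of that part, and it has no sign. The calculation was checked on simulated data in which the diets had equal precision and both statistics were of the same kind. That check covers the arithmetic and neither of these assumptions. Named genes were all 6 members, up to 4 genes per list with the smallest adjusted p, the 3 nearest in pattern and the 3 neighbours on each side. Cyp2b13, Igfals, Hnf4a, Cux2 and listed genes without a row lie outside that rule and were named after their values were seen. The members and lists were chosen with earlier results of these data known. Python 3.11.15, pandas 2.3.3, numpy 2.4.6 and scipy 1.17.1 were used. Alternatives were an adjusted p under 0.01, Bonferroni adjustment, a 99% interval, 1 transcript per gene and a wider motif spacer. 1 listed gene is not reported here by name.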

Additional observations from a re-analysis of the deposited data

How the results depend on the processing

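All 9 transcripts kept an adjusted p under 0.01 and a 99% interval of the fold change that left out 0. With Bonferroni adjustment over all transcripts tested, Cyp3a41a was lost (p 0.0717), which left 2 of 3 A/J transcripts, and the 6 in C57BL/6J stayed. With 1 transcript per gene the C57BL/6J count was 3, since 4 of its 6 are Socs2 transcripts. At an adjusted p under 0.01 the C57BL/6J counts were 6 signalling genes, 8 male-biased genes, 1 organic anion transporter (Slco1a1) and 1 hepatocyte marker, from 11, 13, 4 and 2. In A/J they were 11 female-biased genes from 16, 17 male-biased genes from 24, 4 Cyp3a and Cyp2b genes from 6, 4 signalling genes from 6 and 1 macrophage marker from 2. Fewer genes pass a stricter threshold by construction. No paired analysis was possible because the tables hold no values per library, and leaving out each replicate was not run for the same reason. The comparison of a gene between the strains was not run, because none of the 6 has a row in both tables. Read depth, the named diets of the contrast and the reads shared between near copies limit all values here.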

Other observations

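Of the genes on the lists, cell type markers left out, 10 had a row in both tables, none of them among the 6, and the 2 tables share no library. The glutathione transferase genes Gstp1 and Gstp2, which share reads, had log2 fold changes of -0.69 ± 0.17 (SE) and -0.69 ± 0.17 in C57BL/6J, against -0.80 ± 0.17 and -0.78 ± 0.17 in A/J in the authors' deposited tables. Elovl3, a fatty acid elongase gene, had -0.33 ± 0.21 and -0.94 ± 0.23, and the complement gene C6 had -0.92 ± 0.15 and -0.58 ± 0.19, in the same order in the authors' deposited tables. Mup20, a urinary protein gene, had -0.86 ± 0.18 in C57BL/6J (95% interval -1.20 to -0.51) and an interval from -1.30 to -0.71 in A/J, in the authors' deposited tables. Its relatives Mup3 and Mup21 had 0.04 ± 0.14 and -0.10 ± 0.13 in C57BL/6J against -0.49 ± 0.13 and -0.72 ± 0.16 in A/J in the authors' deposited tables. A value near 0 here does not mean no difference between diets. In C57BL/6J most of the statistic was left for the diet outside the contrast in Mup3 (14.9 of 15.0), Mup21 (16.7 of 17.3) and Elovl3 (13.8 of 16.1). In Gstp1, Gstp2, C6 and Mup20 most of it lay in the contrast. Whether both tables contrast the same diets is not known, so these differences between strains were not tested. The genes in this paragraph were named after their values were seen.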
